A study of Mus musculus with 15 samples.

Results

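Voltage-gated ion channels set how a neuron fires, and 63 genes of their sodium, calcium and potassium families were compared across fear extinction in the mouse hippocampus. They were found by the gene names of the array design, as the pore-forming and auxiliary subunits of the Scn, Cacna, Cacnb, Kcna, Kcnab, Kcnb, Kcnc, Kcnd, Kcnip, Kcnq and Hcn families, and are 63 of 26117 genes measured. Their 108 probes were reduced to the brightest kept probe of each gene. The name rule also took in Kcnq1ot1, an antisense noncoding RNA, so 62 of the 63 code for channel proteins. All 63 passed the filter on dim probes, and 58 were well above background on all 15 arrays. The other 5 included Cacna1f, Scn7a, Scn9a and Scn11a.

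The samples were hippocampal total RNA of male C57BL/6J mice, an inbred strain with no engineered allele, in 3 groups of 5 animals described as biological replicates. E1 mice had been shocked in a box and were sampled 1 h after the first return to it without shock. ELF mice had been shocked likewise and were sampled 1 h after the trial on which freezing was low, which was trial 5. Trials were 24 h apart. The number of trials and the time since shock thus cannot be told apart in ELF against E1. Control mice are called naive in the sample names and described in the design text as exposed to the box without conditioning. The whole hippocampus was measured, so fewer cells of a type and less RNA per cell cannot be told apart, and ages were not given in the sources used here.

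Values are log2 intensities relative to the 75th percentile of the array, given as mean ± SD over 5 arrays of a group. A difference is that of 2 group means on this log2 scale with its standard error (SE), and adjusted p-values come from limma with Benjamini-Hochberg adjustment over all genes. The 75th percentile lay between 1441 and 2932 intensity units. Neuron marker genes were high on all arrays. The mean of the 4 that were measured of 5 lay between 4.50 and 5.05, and none of them, nor of the interneuron, astrocyte, oligodendrocyte or microglia markers, passed the threshold of 0.05 in any comparison. The median ELF difference of the neuron markers was -0.21 from control and -0.24 from E1, and that of the oligodendrocyte markers was -0.13 and -0.26. That of the 5 principal neuron markers, of which 0 were called, was 0.13 from control and 0.01 from E1. Of the 4 neuron markers Snap25, Syt1 and Nefl were saturated on 7 to 15 arrays, and Eno2, which was saturated on 0, differed from control by 0.05 in ELF. Choroid plexus markers averaged 1.84 in control, 1.57 in E1 and 0.52 in ELF, where 1 array was at -1.92. Of 6 endothelial markers 2 were called lower in E1 and 3 in ELF than in control, and 1 of 5 thalamus and habenula markers was called higher in E1. The part of these marker differences in the channel values was not tested. The arrays lay on 4 slides, and no slide held both control and ELF arrays. A fit with slide as a fixed block joins these groups only through E1. Control replicate 5 is then the only control array that counts toward the difference. Slide 1 held 4 control arrays, slide 2 held control replicate 5 and E1 replicates 1 to 3, slide 3 held E1 replicates 4 and 5 and ELF replicates 3 and 4, and slide 4 held ELF replicates 1, 2 and 5.

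As background, sodium channels carry the upstroke of the action potential, calcium channels turn firing into calcium entry and transmitter release, and potassium channels end the spike and set the interval to the next. HCN channels open on hyperpolarisation and shape how dendrites sum their inputs. In the hippocampus these channels are regulated by gene expression and by auxiliary subunits that control trafficking and gating, and changes of excitability of pyramidal neurons are a known accompaniment of learning.

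The probes on which the results below turn are shown by their first 30 of 60 bases, 5′ to 3′ as the array design lists them and in lower case because no motif was searched. The pair of Cacna1h is shown because these probes differed in direction, and Kcna1 because it lay near the upper limit of the scanner. Kcnd1 is shown because its control and E1 values separated by slide. Positions are on build mm7, and strand and exon were not read because no annotation of that build was used here.
Cacna1h brightest probe, chr17:23557893-23557952: ccaccagaagttgtaccaggaccaggtcat
Cacna1h other probe, chr17:23560356-23560415: gagccagacaccccgaacctcctggtcgtg
Kcna1, chr6:126664507-126664566: attttgctggcaatgcattgttgcattgtg
Kcnd1, chrX:6264473-6264629: cgggcacagcagaaagtgcgcctggcaaga

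None of the 63 channel genes passed the threshold (adjusted p under 0.05, limma) in any of the 3 comparisons. The lowest adjusted p was 0.0819 for Kcnd1 in E1 against control, 0.0666 for Kcna1 in ELF against control and 0.325 for Kcnab3 in ELF against E1. Among all genes 0.188% were called in E1 against control, 2.15% in ELF against control and 0.00766% in ELF against E1. At an unadjusted p under 0.05, 4 channel genes were higher and 0 lower in E1 than in control, which is 6.35% higher against 9.07% of all genes and 0% lower against 4.04%. In ELF against control 4 were higher (6.35%, all genes 15.7%) and 9 lower (14.3%, all genes 7.3%). In ELF against E1 1 was higher (1.59%, all genes 5.64%) and 8 lower (12.7%, all genes 4.0%).

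The median difference of the 63 was 0.06 in E1 against control, where that of all genes was 0.04. In ELF against control it was 0.00 against 0.10 for all genes, and in ELF against E1 it was -0.04 against 0.05. In both ELF comparisons the channel median thus lay below that of all genes. Without ELF replicate 2 the medians of ELF against control were 0.04 for the channel genes and 0.04 for all genes, and those of ELF against E1 were -0.09 and -0.01. With slide as a fixed block, which joins ELF to control only through E1 and control replicate 5, the channel median of ELF against control was -0.19. That of all genes was -0.22. The gap between the 2 medians in ELF against control thus depended on ELF replicate 2, and their order on the slide block. The comparisons with control share the control arrays, and both ELF comparisons share the ELF arrays.

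**Figure D1:**
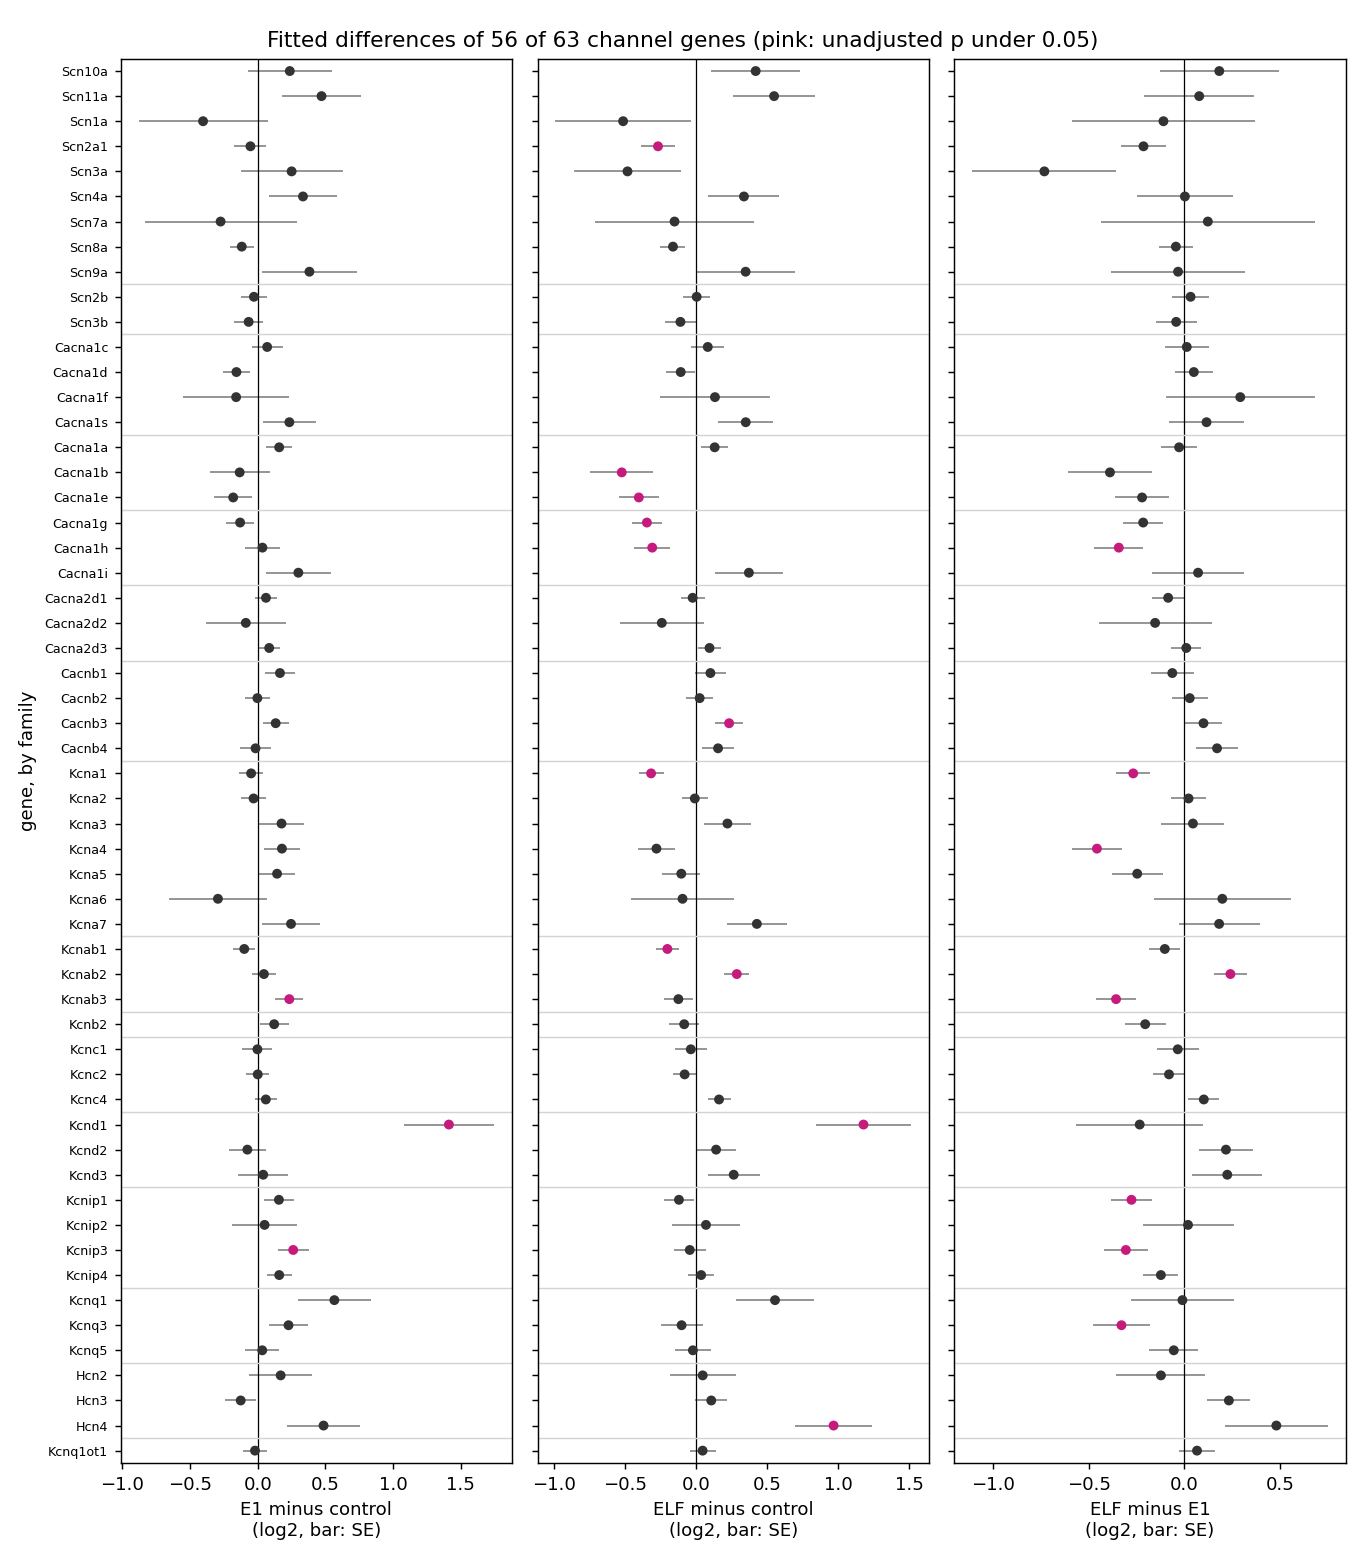
Differences of 56 of the 63 channel genes between group means (points, log2) with their SE (bars), for E1 minus control, ELF minus control and ELF minus E1, ordered by family. Pink points have an unadjusted p under 0.05, and none passed an adjusted p of 0.05. Kcnd1 lies farthest right in E1 minus control, at 1.41.

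Groups without overlapping arrays were few. In E1 against control 0 of 63 channel genes had all 5 arrays of one group above all 5 of the other, where 2.11% of all genes did so upward and 1.62% downward. In ELF against control Kcnab2 was higher without overlap (1 of 63, all genes 2.53%), and Cacna1g, Cacna1h and Kcna1 were lower without overlap (3 of 63, 4.76%, all genes 2.22%). In ELF against E1 Kcna1 was lower without overlap (1 of 63, all genes 0.953%) and 0 were higher (all genes 1.1%). Kcna1 counts here with a probe near saturation, and its separation moved with the scaling, as given with its values.

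The pore-forming sodium channel subunits were 10 of the members. The subunits typical of central neurons showed no called difference. Scn2a1, now named Scn2a, which encodes the main channel of the axon of excitatory neurons, was 3.51 ± 0.18 in the control group, 3.45 ± 0.06 in E1 mice and 3.24 ± 0.25 in ELF mice, and its ELF difference from control was -0.27 (SE 0.12, adjusted p = 0.196). Scn8a, whose product sets the threshold at the axon initial segment, was 4.66 ± 0.07, 4.54 ± 0.15 and 4.50 ± 0.13 in the same order. Its probe was saturated on 3 arrays, E1 replicate 1 and ELF replicates 4 and 5, which limits what could be seen upward. ELF replicates 4 and 5 read 60077 and 59263 intensity units, above the highest control array at 58726. After scaling they were at 4.36 and 4.44, below the lowest control array at 4.58. The part of the scanner limit in the scaled ELF values was not tested. The other probe of Scn8a differed from control by -0.52 (SE 0.24) in ELF, where its SD was 0.68.

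Scn1a, the sodium channel on which fast-spiking interneurons depend, had 2 arrays far below the others. Control arrays lay between 1.85 and 2.14. Of the E1 arrays 4 lay between 1.78 and 2.15, and E1 replicate 5 was at -0.25. Of the ELF arrays 4 lay between 1.73 and 2.03, and ELF replicate 2 was at -0.26. The groups overlapped almost fully apart from these 2 arrays, which are on slides 3 and 4. The difference from control was -0.40 (SE 0.48) in E1 and -0.51 (SE 0.48) in ELF, and it was 0.05 without E1 replicate 5 and -0.09 without ELF replicate 2. The mean of the 7 interneuron markers was 2.07 on E1 replicate 5, within the 2.05 to 2.15 of the E1 arrays. It was 1.92 on ELF replicate 2, within the 1.90 to 2.10 of the ELF arrays and below the lowest control array at 2.01. The part of the interneuron markers in the Scn1a values was not tested.

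Scn3a, a sodium channel most abundant before birth, also rested on ELF replicate 2. That array was at -2.91, and the other ELF arrays lay between -0.77 and -0.15. The difference of ELF from control was -0.48 (SE 0.38) with it and -0.01 without it. Among the channels of peripheral nerve and muscle, Scn4a, Scn7a, Scn9a, Scn10a and Scn11a, the ELF arrays separated by slide. Scn7a was at -4.64, -4.46 and -4.34 on the 3 ELF arrays of slide 4 and at -6.82 and -7.95 on the 2 of slide 3. It was well above background on 5 control, 3 E1 and 3 ELF arrays. Its ELF mean differed from control by -0.15 (SE 0.56).

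Auxiliary sodium channel subunits anchor the channel and tune its gating. Scn2b was 3.36 ± 0.06 in the control group, 3.33 ± 0.11 in E1 mice and 3.36 ± 0.20 in ELF mice. Scn3b was saturated on 5 arrays, control replicate 3 and ELF replicates 2 to 5, and differed by -0.11 (SE 0.11) in ELF. Its other probes differed by -0.25 (SE 0.14) and 0.29 (SE 0.11).

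**Figure D2:**
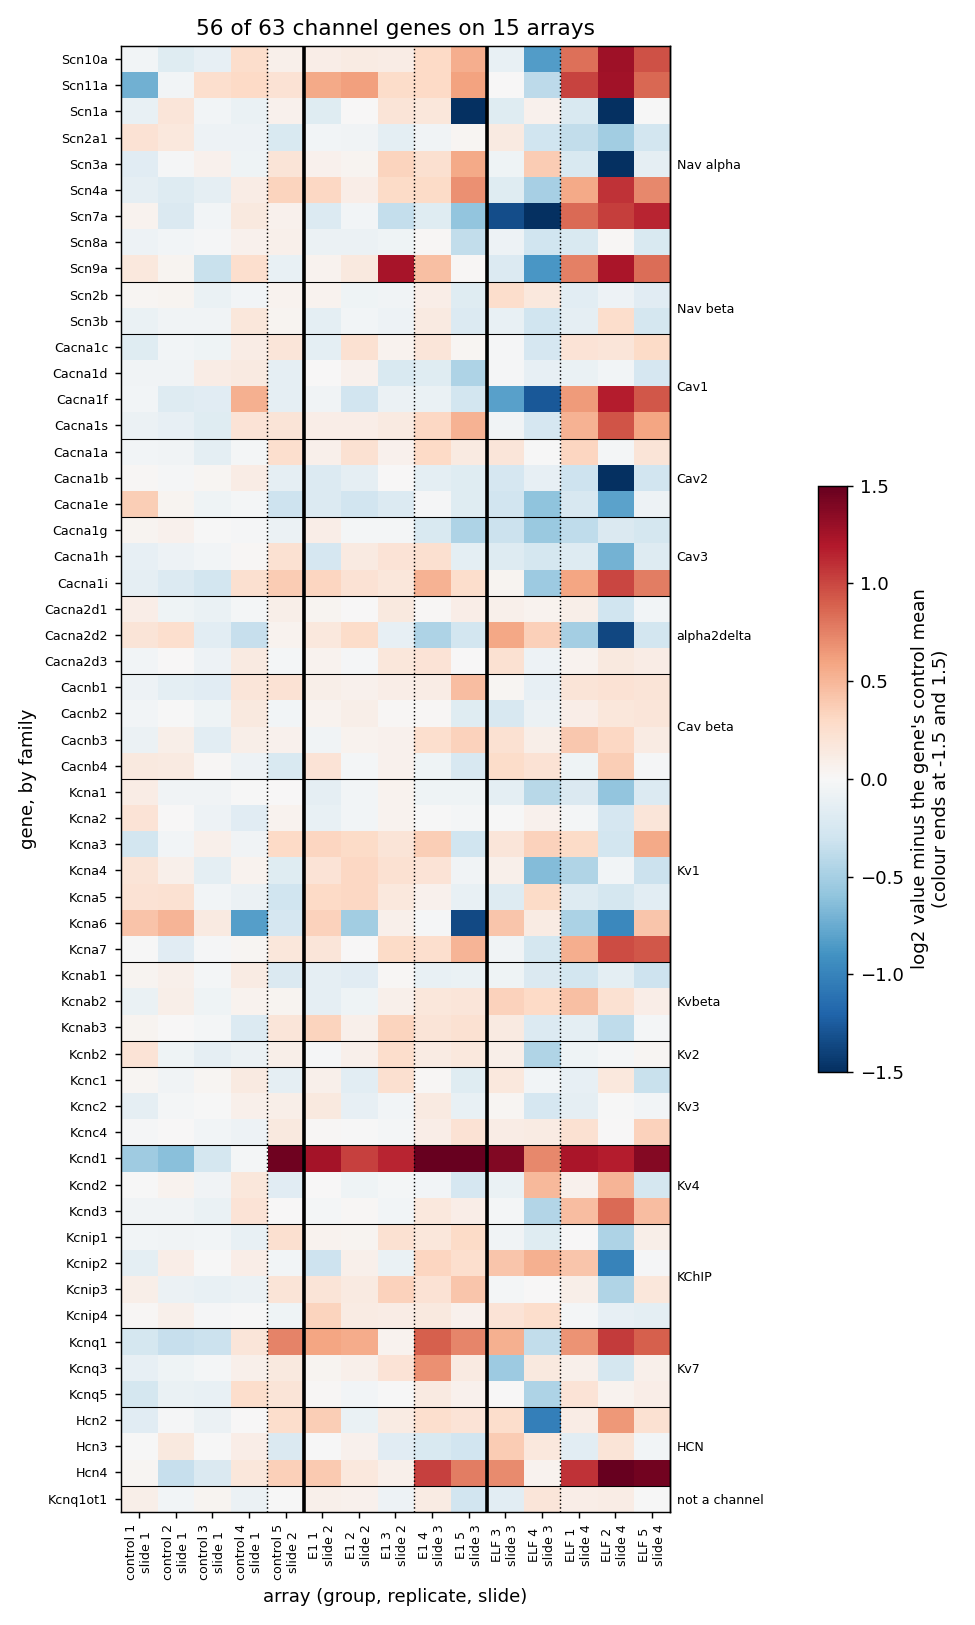
Value of 56 of the 63 genes on each of the 15 arrays minus the mean of the 5 control arrays of that gene (log2, colour scale ending at -1.5 and 1.5), with genes by family and arrays by group and slide. Solid vertical lines part the groups and dotted ones the slides of a group. Kcnd1 is low on the 4 control arrays of slide 1 only, and ELF replicate 2 stands out blue for Scn1a, Scn3a and Cacna1b.

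The calcium channel pores fell into L-type, P/Q-, N- and R-type, and T-type subunits. The L-type subunits of neurons, which couple calcium entry to transcription, showed no called difference. Cacna1c was -0.42 ± 0.14 in the control group, -0.35 ± 0.15 in E1 mice and -0.34 ± 0.22 in ELF mice, and Cacna1d was -0.51 ± 0.11, -0.67 ± 0.21 and -0.62 ± 0.09. Cacna1a, the P/Q-type subunit of presynaptic terminals, was -1.67 ± 0.15, -1.51 ± 0.10 and -1.54 ± 0.15, and its 2 probes differed from control in ELF by 0.13 (SE 0.09) and -0.28 (SE 0.11).

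Cacna1b, the N-type subunit that also drives transmitter release, was at 0.60 to 0.85 on the control arrays, 0.53 to 0.74 on the E1 arrays and 0.43 to 0.61 on 4 ELF arrays, with ELF replicate 2 at -0.90. Its ELF difference was -0.52 (SE 0.22, adjusted p = 0.18) with that array and -0.24 (SE 0.07, adjusted p = 0.104) without it. Its other probe differed by -0.04 (SE 0.10). Cacna1e, the R-type subunit, was -3.64 ± 0.24 in the control group, -3.82 ± 0.10 in E1 mice and -4.04 ± 0.29 in ELF mice, a difference of -0.40 (SE 0.14, adjusted p = 0.121), and its other probe also lay lower in ELF.

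T-type channels open near rest and support burst firing. Cacna1g read 1.92, 1.94, 1.87, 1.86 and 1.80 on the control arrays, 1.98, 1.85, 1.85, 1.66 and 1.42 on the E1 arrays and 1.50, 1.67, 1.55, 1.33 and 1.62 on the ELF arrays, in replicate order. All ELF arrays lay below all control arrays, and the 2 low E1 arrays were those of slide 3. The ELF difference was -0.35 (SE 0.10, adjusted p = 0.0793). It was called in the fit to the authors' deposited value table, at -0.44 (adjusted p = 0.0238), and after a correction for probe GC share, at -0.41 (adjusted p = 0.0384). With slide as a fixed block, which leaves control replicate 5 as the only control array that counts, it was 0.00 (SE 0.18). Between ELF and E1 arrays of slide 3 it was -0.09. Its other probe differed from control by -0.09 (SE 0.11) in ELF and by 0.12 (SE 0.11) in E1.

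Cacna1h read 0.32, 0.36, 0.40, 0.45 and 0.67 in control, 0.19, 0.58, 0.64, 0.68 and 0.29 in E1 and 0.25, -0.27, 0.25, 0.18 and 0.25 in ELF. The ELF arrays lay below all control arrays but overlapped with E1. The difference was -0.31 (SE 0.13, adjusted p = 0.173), while the second probe shown above differed by 0.36 (SE 0.14), and the mean of all 4 probes by 0.10. Cacna1h was the only one of 30 genes with several kept probes in which probes of opposite sign both had an unadjusted p under 0.05 in ELF against control. Cacna1i was -3.66 ± 0.29, -3.36 ± 0.14 and -3.29 ± 0.62, with its ELF arrays divided by slide.

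Of the auxiliary calcium channel subunits, the alpha2delta proteins carry channels to the membrane, and none was called. Cacna2d1 differed from control by 0.06 (SE 0.08) in E1 and -0.02 (SE 0.08) in ELF, and Cacna2d3 by 0.08 and 0.10 with the same SE. Cacna2d2 spread widely in ELF, between -0.36 and 1.60, with differences of -0.09 in E1 and -0.24 in ELF (SE 0.30), while another of its 4 probes differed by 0.33 in E1 and 0.27 in ELF (SE 0.12). All 4 beta subunits, which hold the pore at the membrane, had a positive ELF difference, between 0.03 for Cacnb2 and 0.23 for Cacnb3 (SE 0.10, adjusted p = 0.171), with a median of 0.13 where that of all genes was 0.10. With median scaling Cacnb2 was at -0.08, so the shared sign depended on the scaling. Cacnb4 differed by 0.16 with its brightest probe and by a negative value with each of its 3 others.

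**Figure D3:**
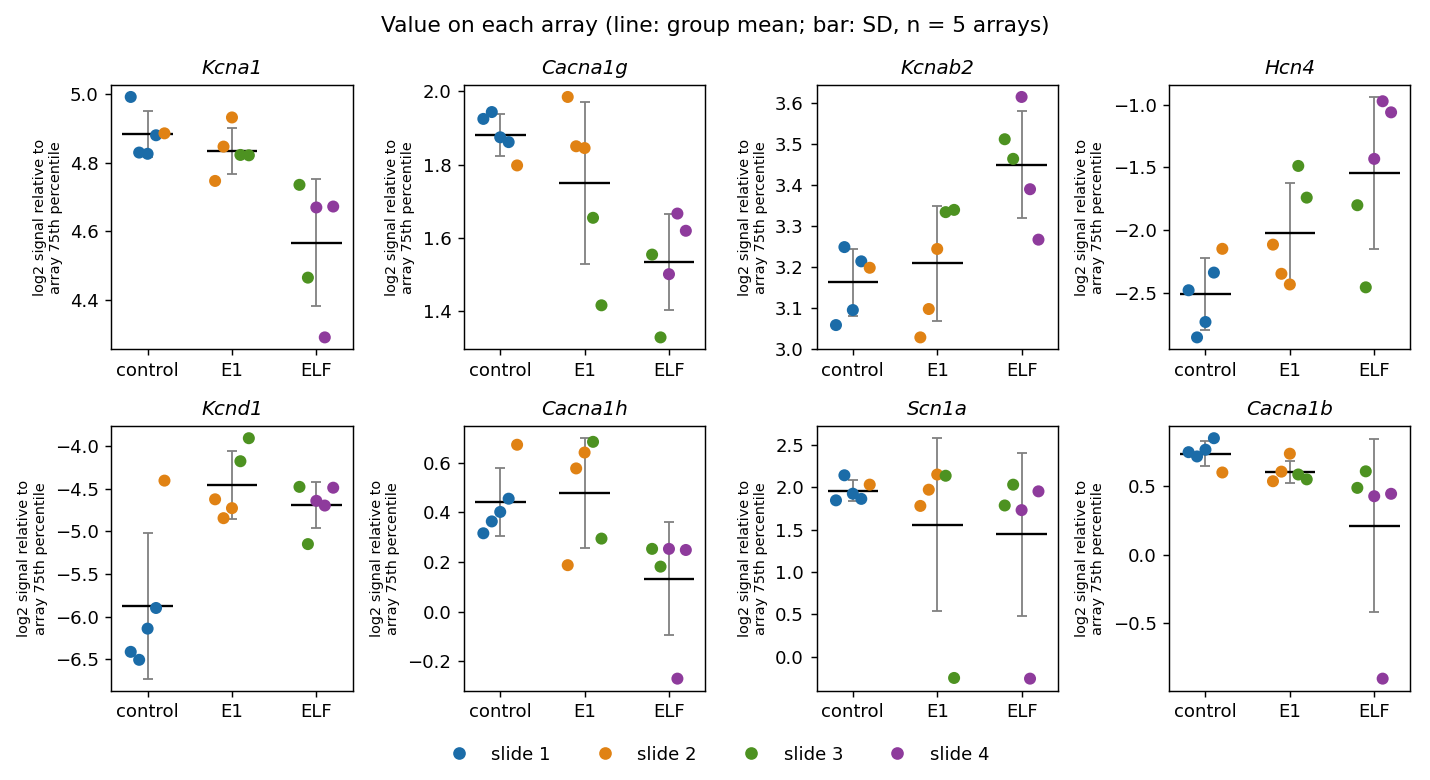
Value of 8 channel genes on each of the 15 arrays (points, log2 relative to the array's 75th percentile), coloured by slide, with group means (lines) and SD (bars, n = 5). The scaled ELF values of Kcna1, a probe saturated on 5 of the 15 arrays, lie between 4.29 and 4.74, and control replicate 5 of Kcnd1 lies with the E1 arrays of its slide.

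Kcna1 encodes a Kv1 subunit of axons and terminals that holds back repetitive firing, and its probe lay near the upper limit of the scanner. After scaling it read 4.99, 4.83, 4.83, 4.88 and 4.89 in control, 4.75, 4.85, 4.93, 4.82 and 4.82 in E1 and 4.67, 4.29, 4.74, 4.47 and 4.67 in ELF. The scaled ELF values lay below those of both other groups, with the highest ELF array, at 4.74, just under the lowest E1 array, at 4.75. Before scaling they did not. The ELF arrays read 64315, 39910, 61099, 64765 and 69868 intensity units, the control arrays lay between 55677 and 68250, and the E1 arrays between 40772 and 66718. The difference of ELF was -0.32 (SE 0.09, adjusted p = 0.0666) from control and -0.27 (SE 0.09, adjusted p = 0.393) from E1, and that of E1 from control was -0.05 (SE 0.09). The ELF difference from control was -0.25 without ELF replicate 2, -0.27 (SE 0.22) with slide as a fixed block and -0.49 after the GC correction. On slide 3 alone the 2 ELF arrays averaged 0.22 below the 2 E1 arrays on the log2 scale, which is -0.22 as a difference. The probe was saturated on 5 arrays, control replicates 2 and 3, E1 replicates 1 and 2 and ELF replicate 4. The median scaled value of all saturated probes tended to be lower where the 75th percentile was higher. That median was 4.68, 4.75, 4.43 and 4.56 on ELF replicates 1, 3, 4 and 5, all below the lowest control value of Kcna1. On each of these replicates a reading at the limit falls below the control group whatever the level. Among the ELF arrays only replicate 2 lay more than 0.1 below that median, which was 5.00 there. With quantile normalization the ELF difference from control was -0.15 (SE 0.13). On ELF replicates 1, 3, 4 and 5 a lower level of Kcna1 cannot be told apart from the limit of the scanner. ELF replicate 2 read 39910 intensity units and 4.29 after scaling, where E1 replicate 5 read 40772 and 4.82. The part of the scanner limit in the ELF difference was not tested.

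Other Kv1 subunits varied in either direction. Kcna2, the usual partner of Kcna1, was -2.64 ± 0.14, -2.67 ± 0.06 and -2.65 ± 0.16. Kcna4, an inactivating subunit of axon terminals, read between 0.57 and 0.94 in control, between 0.70 and 1.06 in E1 and between 0.10 and 0.82 in ELF, so that the groups overlapped. Its ELF difference was -0.46 (SE 0.13, adjusted p = 0.332) from E1 and -0.28 (SE 0.13) from control.

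The Kv beta subunits, cytoplasmic partners of Kv1 channels, had differences of both signs. Kcnab2 read 3.06, 3.25, 3.09, 3.21 and 3.20 in control, 3.03, 3.097, 3.24, 3.33 and 3.34 in E1 and 3.61, 3.39, 3.51, 3.46 and 3.27 in ELF. All ELF arrays lay above all control arrays, and the 2 E1 arrays of slide 3 lay among them. The ELF difference from control was 0.29 (SE 0.09, adjusted p = 0.0853), and it was 0.08 with slide as a fixed block and 0.04 after the GC correction. Kcnab1 differed by -0.20 (SE 0.08, adjusted p = 0.162) with its brightest probe and by 0.26 (SE 0.12) with its other. Kcnab3 was -0.41 ± 0.14 in the control group, -0.17 ± 0.11 in E1 mice and -0.53 ± 0.19 in ELF mice, a difference of 0.23 (SE 0.10, adjusted p = 0.353) in E1 against control and of -0.36 (SE 0.10, adjusted p = 0.325) in ELF against E1.

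Kv3 channels let interneurons fire fast. Kcnc1 and Kcnc2 differed from control in ELF by -0.04 (SE 0.11) and -0.08 (SE 0.08).

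The Kv4 channels and their KChIP partners carry the transient current that limits back-propagation of spikes into dendrites. Kcnd2, the main Kv4 subunit of pyramidal dendrites, was 3.36 ± 0.12 in the control group, 3.28 ± 0.10 in E1 mice and 3.50 ± 0.35 in ELF mice, with probes at 0.14 and -0.52 in ELF against control. All 4 KChIP genes had a positive difference in E1 against control, with a median of 0.16 where that of all genes was 0.04, but Kcnip2 was at -0.06 after the GC correction. Kcnip3, which is also known as the transcriptional repressor DREAM, differed by 0.26 (SE 0.11, adjusted p = 0.345) in E1, and its other probe by 0.32 (SE 0.09). The E1 difference of its brightest probe was 0.02 after the GC correction. In ELF against E1 it was -0.31 (SE 0.11, adjusted p = 0.432), and Kcnip1 was -0.28 (SE 0.11).

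Kcnd1, a Kv4 subunit, had the largest difference of the 63 members in E1 against control. Its control and E1 values separated by slide, and its ELF values did not. The probe was dim, with a mean of -5.01 over all arrays, though well above background on all 15. Kcnd1 read -6.41, -6.50, -6.14 and -5.90 on the 4 control arrays of slide 1 and -4.41 on control replicate 5, which is on slide 2. Its E1 arrays lay between -4.85 and -3.91 and its ELF arrays between -5.15 and -4.48. The fifth control array thus lay at the level of the E1 arrays.

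The E1 difference of Kcnd1 from control was 1.41 (SE 0.33, adjusted p = 0.0819). Among the arrays of slide 2 alone it was -0.33, the opposite sign. Without control replicate 5, which leaves all control arrays on slide 1, it was called, at 1.78 (adjusted p = 0.000318), where 4.28% of all genes were. Slide 1 and the control group cannot be told apart in that fit. With the replicate number of the labels as a block, in a fit of the 10 E1 and control arrays, 5 of 63 channel genes were called, all of them higher and among them Hcn4, Kcna7, Kcnd1 and Scn4a, where 12.3% of all genes were. The same block in the fit of 15 arrays called 0.

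Kv7 subunits form the M-current, which brakes repetitive firing. Kcnq3 was -3.65 ± 0.11 in the control group, -3.42 ± 0.26 in E1 mice and -3.75 ± 0.30 in ELF mice, with a difference of -0.33 (SE 0.15, adjusted p = 0.505) in ELF against E1. Kcnq5 differed from control by 0.03 in E1 and -0.02 in ELF (SE 0.13). The sign of the Kcnq5 difference in E1 depended on the scaling, at -0.01 with median scaling.

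Among HCN channels Hcn4, the pacemaker subunit more abundant in thalamus, read -2.48, -2.86, -2.73, -2.34 and -2.15 in control, -2.12, -2.35, -2.44, -1.49 and -1.74 in E1 and -1.43, -0.97, -1.80, -2.46 and -1.06 in ELF.

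The ELF difference of Hcn4 was 0.97 (SE 0.27, adjusted p = 0.0667). ELF replicate 4 lay among the control arrays, and without it the difference was 1.20 (adjusted p = 0.00983). In that fit of 14 arrays 10 channel genes were called, where 19.8% of all genes were. After the GC correction the Hcn4 difference was 0.72 and called (adjusted p = 0.0321). With slide as a random block it was 0.40 (SE 0.36), and between ELF and E1 arrays of slide 3 it was -0.52. Its other probe differed by 0.53 (SE 0.44). The thalamus and habenula markers averaged -0.29 in control, 0.00 in E1 and -0.29 in ELF, beside Hcn4 differences from control of 0.49 in E1 and 0.97 in ELF, and their part in the Hcn4 values was not tested. Hcn2 and Hcn3 differed from control by 0.05 (SE 0.23) and 0.11 (SE 0.11) in ELF.

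Slide and base composition moved with these values across the family. With slide as a fixed block, which compares ELF with E1 on slide 3 only, 9 of 63 channel genes were called, Hcn3 higher and 8 lower, among them Cacna1f, Cacna1s, Kcna7, Kcnd1, Scn10a, Scn4a and Scn7a, where 19.6% of all genes were called. Within the control group the gap between slide 1 and slide 2 went with the GC share of the probe, with a Spearman's rho of -0.69 across the 63 genes. Within E1 the gap between slides 2 and 3 gave -0.60, and within ELF the gap between slides 3 and 4 gave -0.33. These correlations are across genes measured on the same arrays and describe those arrays.

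The group differences went with GC share as well. Across the 63 genes rho was 0.50 in E1 against control and 0.43 in ELF against control, and 0.03 in ELF against E1. Across all 26117 genes it was 0.50, 0.33 and -0.11, so the relation was not particular to channel genes. The probe of Kcnd1 has a GC share of 55%, and the median of the 63 probes was 43.3%. After a smooth curve on GC share was subtracted from each array, Cacna1g and Hcn4 were called in ELF against control, 3.17% of the channel genes where 4.99% of all genes were, and 0 channel genes in the other 2 comparisons. The channel median of ELF against control was then -0.13, and that of all genes -0.03.

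**Figure D4:**
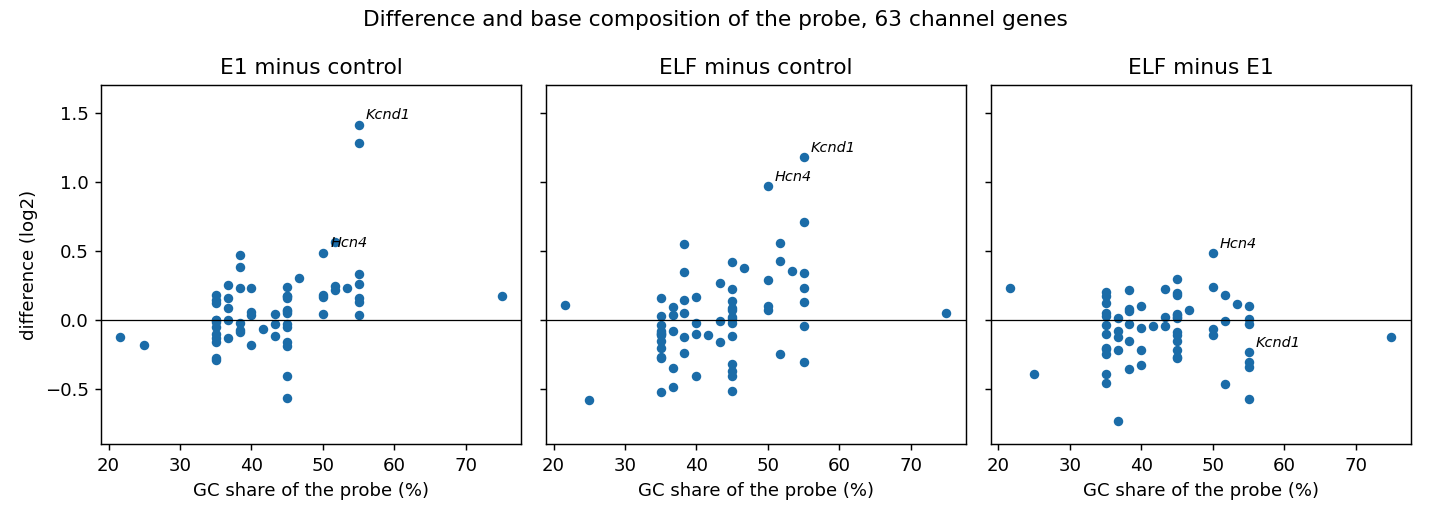
Difference between group means (log2) against the GC share of the probe (%) for the 63 channel genes, 1 point per gene, in the 3 comparisons. In E1 minus control and ELF minus control the points climb with GC share (rho 0.50 and 0.43), and in ELF minus E1 they do not (rho 0.03).

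Different probes of a gene often disagreed. Of the 30 genes with more than 1 kept probe, 17 had a probe of opposite sign to the brightest in E1 against control, 14 in ELF against control and 13 in ELF against E1. Genes whose probes all lay on the same side in ELF against control included Hcn4, Cacna1e, Scn2a1 and Scn3a.

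**Figure D5:**
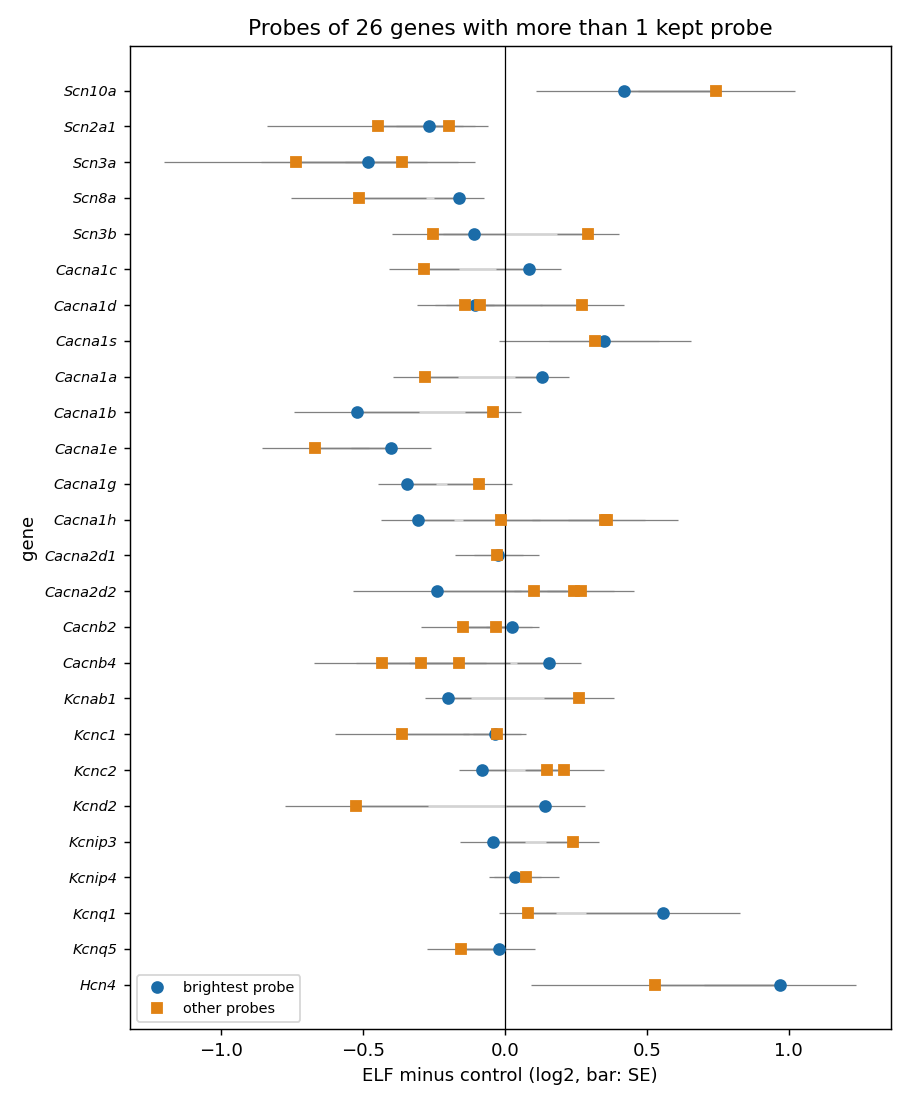
Difference of ELF minus control (log2, bars SE) for each kept probe of 26 of the 30 channel genes with more than 1, with the brightest probe as a blue circle and others as orange squares. Of the 26 genes drawn, 12 have probes on both sides of 0, and the probes of Cacna1h lie at -0.31 and 0.36 at their ends.

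The 75 related channel genes outside the families above, among them calcium-activated, inwardly rectifying, tandem-pore and Kv-modifier potassium channels, calcium channel gamma subunits and chloride channels, also held 0 called genes in the 3 comparisons. Their median difference was 0.08 in E1 against control, 0.10 in ELF against control and 0.00 in ELF against E1. At an unadjusted p under 0.05, 10 were higher and 2 lower in E1 than in control, which is 13.3% and 2.67% against 9.07% and 4.04% of all genes. In ELF 6 were higher and 3 lower than in control (8% and 4%, all genes 15.7% and 7.3%), and 2 were higher and 5 lower than in E1 (2.67% and 6.67%, all genes 5.64% and 4.0%). The smallest p in E1 was that of Kcnv1, a silent subunit that modifies Kv2 channels, at 0.43 (SE 0.10, adjusted p = 0.0818).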

How the data were processed

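Hippocampal RNA was hybridised to 15 single-colour arrays. Per the file headers, the authors read them with Agilent Feature Extraction 9.5.3.1, which deposited mean, background and processed intensity per spot. A value table deposited by the authors is on a log2 scale, with a normalization between arrays that no source used here states, and the submitters' processing notes also name limma. Processed intensity was taken as log2 minus the 75th percentile of its array, without 1639 control spots and outlier spots. A probe was kept if well above background on at least 5 of 15 arrays (38458 of 41174 probes), and the brightest probe per gene name was used. Between 83.5% and 97.2% of spots per array were well above background, which with 5 arrays per group limits the precision. Groups were fitted with limma 3.58.1 in R 4.3.3 without covariates, and the fit was tested on simulated data. Of the 63 names, 47 matched RefSeq of GRCm38.p6 by accession.

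The members, families, related genes and markers were chosen with earlier results of these data known. Genes described are the 3 of smallest unadjusted p per direction and comparison, genes fixed by role, and the members of highest and lowest signal. Others were named after their values were seen, and some genes are not reported here. Alternatives were other background, scaling, filter, probe, variance and block settings, each array left out, and 2 added after seeing the data, a GC correction and leaving out E1 replicate 5 with ELF replicate 2. Same-numbered E1 and control arrays deviated together (correlation of deviations 0.14 to 0.30, all 5 pairs), where differently numbered pairs gave -0.34 to 0.27. The same-numbered array was the best match for 3 of 5 E1 arrays and 2 of 5 control arrays. This pairing comes from the data, while the animal numbers of the sample names differ. Signal ratios or levels of different probes were not compared.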

Additional observations from a re-analysis of the deposited data

Results flagged for a closer look

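For 40 named channel genes in 3 groups, 120 group values were examined for an array that stands apart from the other 4 (gap to the nearest over the whole range above 0.71), and 12 did. Chance alone gives about 1 in 20 such groups. The values are log2 relative to the array's 75th percentile. Of all genes, 5.34% had ELF replicate 2, 4.71% had E1 replicate 5 and 2.98% had control replicate 5 standing apart in its group.

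ELF replicate 2 was the lowest ELF array for 4 of these genes. It read -0.26 for Scn1a, where the others lay between 1.73 and 2.03. It read -2.91 for Scn3a, -0.90 for Cacna1b and -0.27 for Cacna1h.

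E1 replicate 5 was the lowest E1 array for 3 genes, at -0.25 for Scn1a, -0.44 for Cacnb2 and 3.099 for Kcnd2, and the other E1 arrays of Scn1a lay between 1.78 and 2.15. E1 replicate 4 was the highest for Kcnq3, at -2.97.

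Control replicate 5, the only control array outside slide 1, was the highest control array for 3 genes. It read -4.41 for Kcnd1, -1.41 for Cacna1a and -0.81 for Kcnip1. Control replicate 4 was the highest for Cacnb2, at -0.11.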

How the results depend on the processing

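Of 30 alternatives per comparison, 15 leave out 1 array. No channel gene was called in the reported fits, and counts of called channel genes stayed at 0 under the alternatives not named here. In E1 against control quantile normalization and median scaling each called 1 (Kcnd1), or 1.59% of channel genes where 1.71% and 1.15% of all genes were called. The replicate block called 5 in the fit of 10 arrays and 0 in that of 15. Leaving out 1 array gave 0 to 2, with 2, Kcnd1 among them, without control replicate 5. In ELF against control quantile normalization and the authors' value table each called 3 (4.76%, all genes 6.56% and 6.08%), median scaling and a robust variance prior each 1 (1.59%, all genes 4.61% and 2.97%) and the GC correction 2 (3.17%, all genes 4.99%). Leaving out 1 array gave 0 to 10, with 10 without ELF replicate 4 and 3 without control replicate 5 (4.76%, all genes 8.08%). In ELF against E1 a fixed slide block called 9. Slide as a random block called 0 in all 3 comparisons. ELF arrays did not deviate with same-numbered control or E1 arrays, and there the replicate block left the count of called channel genes at 0. Of all genes it called 0.831% in ELF against control in the fit of 15 arrays and 0% in that of 10, where the reported fit called 2.15%.

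The median difference of the channel genes moved beyond the spread of array medians with a fixed slide block. It was then -0.022 in E1 against control, -0.19 in ELF against control and -0.16 in ELF against E1. The medians of all genes moved too, from 0.04, 0.10 and 0.05 in the reported fit to -0.037, -0.22 and -0.18. With median scaling the channel median was -0.10 in both ELF comparisons, where all genes were at -0.0013 from control and -0.0070 from E1. With the authors' table it was -0.072 in ELF against control (all genes 0.011). With a random slide block it was -0.13 in ELF against E1 (all genes -0.073). With the GC correction it was -0.13 in ELF against control (all genes -0.025) and -0.12 in ELF against E1 (all genes -0.022).

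Of 3597 differences of named genes under an alternative, 25 passed the threshold and 13 changed sign where either value had an unadjusted p under 0.05. A further 290 changed sign between values that both missed it. With a fixed slide block the sign changed in E1 against control for Kcnd1 (-0.33). In ELF against control it changed for Cacna1b (0.0069), Cacna1g (0.0015), Cacna1i (-0.78), Hcn4 (-0.67), Kcnab1 (0.087), Kcnd1 (-1.10) and Scn2a1 (0.079), and in ELF against E1 for Cacna1i (-0.64) and Cacna2d2 (0.84). That block leaves 1 control array to compare with E1, and it compares ELF with control only by way of E1. With the mean of all probes the ELF difference from control changed sign for Cacna1h (0.10) and Kcnab1 (0.0295), since it includes probes that differ in sign. With the GC correction Hcn3 in E1 against control was 0.26. The causes of the other changes were not tested. Dim members near background, such as Scn7a and Scn11a, are limited by their signal.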
